A study of Homo sapiens with 6 samples.

Results

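The Mediator complex was followed in NALM6 cells as the RNA levels of 32 genes, 26 of the core complex and 6 of its kinase module. The members were listed by name, and all 32 were found by symbol among the 57905 genes of the count table and passed the filter on low counts that left 16622 genes to test. NALM6 is an established human line of leukemic B cell precursors. THZ1 binds CDK7, a kinase of the general transcription factor TFIIH, covalently and inhibits it. Total RNA of NALM6 cells exposed for 24 h to THZ1 at 500 nM (3 libraries) or to DMSO, its solvent (3 libraries), was sequenced. The labels name neither separate cultures nor separate days for the replicates, so that the p-values measure the spread between these libraries alone, which may be technical. The question was how the RNA of the subunits differed between THZ1-treated and DMSO-treated cells.

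Mediator is a large complex that carries signals from DNA-bound transcription factors to RNA polymerase II. Its head and middle modules contact the polymerase, its tail binds activators, and MED14 runs through all of them as a backbone. The kinase module, made of CDK8 or its paralog CDK19, cyclin C, MED12 and MED13 or MED13L, docks on the core reversibly and blocks its contact with the polymerase, while MED26 joins the core that lacks the kinase module. Mediator also helps TFIIH, the complex that holds CDK7, to phosphorylate the polymerase.

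The total counts on genes lay between 11015480 and 11164840 in the DMSO libraries and between 7876402 and 8314306 in the THZ1 libraries, and every DMSO library was deeper. The lowest count of any subunit was 53, for MED11 in THZ1 replicate 2, so that none of the 32 was near the limit of detection. Levels are given as CPM, a count's share of its TMM-scaled library size, and 3 counts corresponded to at most 0.253 CPM in the DMSO libraries and 0.415 CPM in the THZ1 libraries. Mitochondrially encoded genes held 4.32 to 4.37% of the counts with DMSO and 12.6 to 13.6% with THZ1, and the part of this difference in the values of the subunits was not tested. Of the 27 marker genes checked, 26 were matched. The 11 B precursor markers summed to between 4005 and 4165 CPM with DMSO and between 2116 and 2187 CPM with THZ1, and none was at 0. The 4 T cell markers summed to at most 0.969 CPM in any library, with CD8A at 0. The 5 myeloid markers lay between 3.88 and 4.59 CPM with DMSO and between 17.3 and 18.4 CPM with THZ1. In this sum CD14 went from 0.636 to 8.71 CPM and CSF1R from 0.111 to 6.08 CPM, while LYZ went from 2.48 to 1.39 CPM and MPO from 1.08 to 1.204 CPM. The 3 fibroblast markers reached 4.46 CPM with DMSO and 16.1 CPM with THZ1, of which COL1A1 held 3.71 and 15.7 CPM on average, while COL1A2 and DCN were under 0.1 CPM. Of the erythroid markers, ALAS2 went from 0.0549 to 3.09 CPM and HBB from 0.139 to 0.0877 CPM. The part of these marker levels in the results on Mediator was not tested. In such bulk libraries, fewer cells with a transcript and less of the transcript in each cell cannot be told apart, and CPM values show a gene's share of the counted RNA, not its amount per cell.

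Mediator RNA did not move as a block. MED18, a head subunit, rose to 12.4 times its DMSO level, MED26 rose to 3.87 times, and MED7, MED29 and MED31 rose by less, while CDK8, MED20, MED6, MED8, CCNC, MED30 and MED9 fell to less than 0.49 times their level with DMSO. In edgeR's quasi-likelihood test, at an adjusted p below 0.05 (Benjamini-Hochberg, over every gene tested), 15 of the 32 members (46.9%) were lower with THZ1 and 11 (34.4%) were higher, and 6 (MED10, MED14, MED16, MED13, MED13L and CDK19) were not called. Among all 16622 genes tested, 41.1% were lower and 43.5% were higher by the same rule, and among the 11929 protein-coding genes 47.6% were lower and 36.3% were higher, so that the shares of the members lay near those of protein-coding genes in general. The libraries of the treatments did not overlap for 26 of the 32 members, against 84.7% of all genes and 84.3% of protein-coding genes. Past a log2 fold change of 1.5, 2 members were higher (6.25%, MED18 and MED26), against 24.6% of all genes and 15.3% of protein-coding genes. With TMM factors in edgeR no member was lower past that size, whatever its p, since the lowest log2 fold change was −1.34. In that fit 12.9% of all genes and 13.3% of protein-coding genes were called lower past it. No member was lower past it by DESeq2 either, whereas CDK8 was at −1.59 with library sizes alone. The shares over all genes under those other settings are not given here. The median log2 fold change of the members was −0.08, beside 0.03 over all genes and −0.20 over protein-coding genes.

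**Figure D1:**
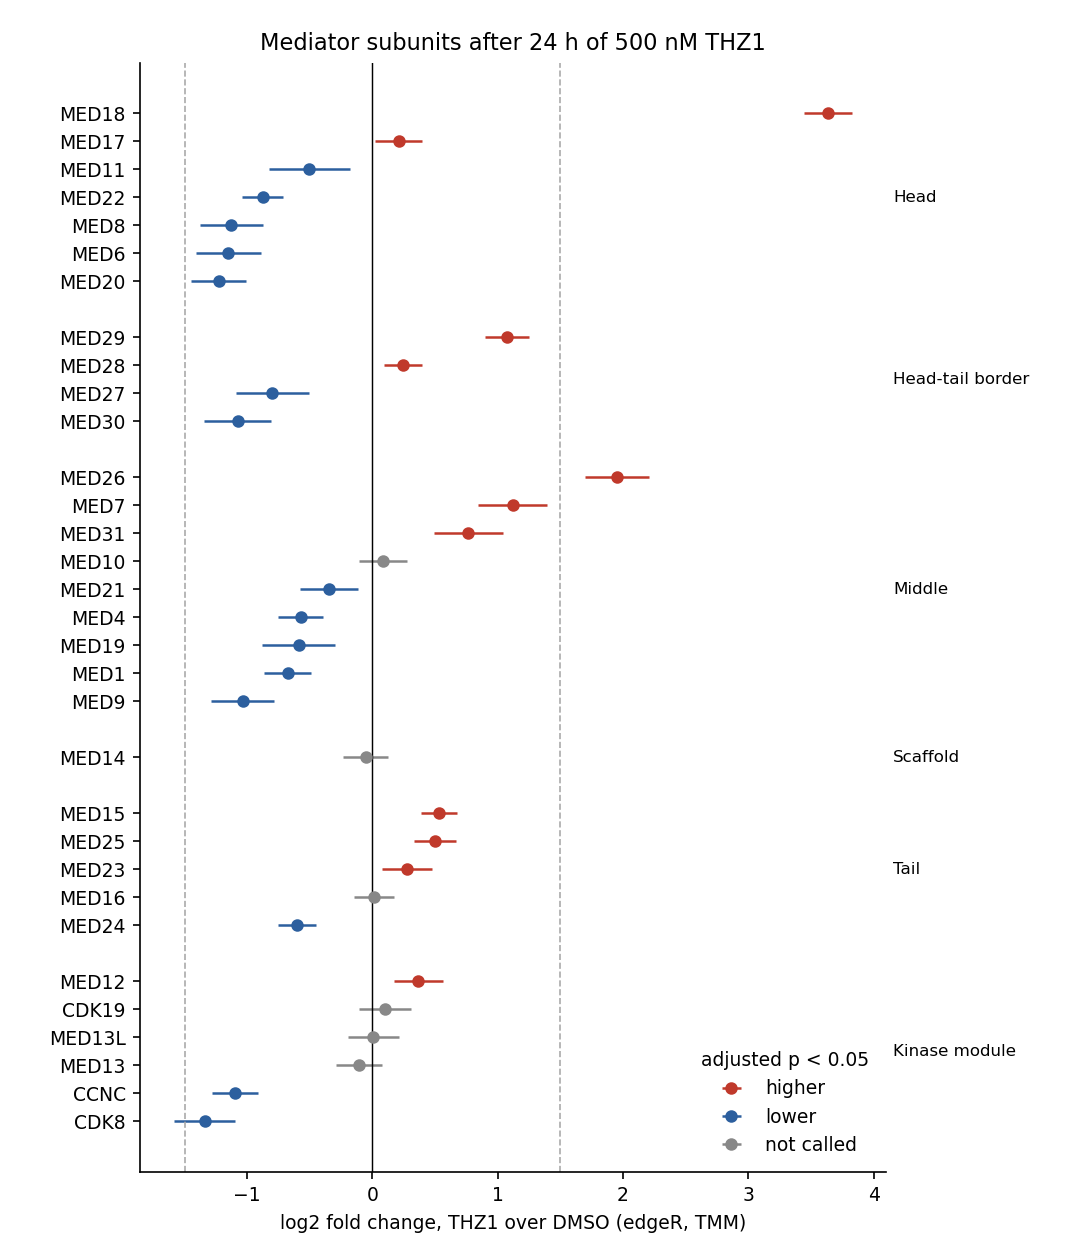
Log2 fold change of each of the 32 subunits (THZ1 over DMSO, edgeR with TMM factors), grouped by module, with points at the estimate, bars for the 95% interval and dashed lines at a size of 1.5. MED18 lies at 3.64 and MED26 at 1.95, past the dashed line, and no subunit lies past the line on the lower side.

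The scaling set part of the split between higher and lower members. Scaling by library sizes alone put 19 members lower and 7 higher, and the median of all genes then fell by 0.25 on the log2 scale. Upper quartile factors raised the median of all genes by 0.19 and put 13 members lower and 14 higher. The direction and the call were the same in all 16 alternatives for 20 members, 13 lower (MED6, MED8, MED20, MED22, MED27, MED30, MED1, MED4, MED9, MED19, MED24, CDK8 and CCNC) and 7 higher (MED18, MED29, MED7, MED26, MED31, MED15 and MED25). The other 12 members (MED11, MED17, MED28, MED10, MED21, MED14, MED16, MED23, MED12, MED13, MED13L and CDK19) lost a call, gained it or changed sign under at least 1 alternative, and of these MED11 lay farthest from 0, at −0.50 on the log2 scale. Some alternatives used the deposited FPKM values, whose scaling is not given in the sources used here. Of these, the limma fits to log2(FPKM + 1) with and without a filter gave the same values for every member.

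**Figure D2:**
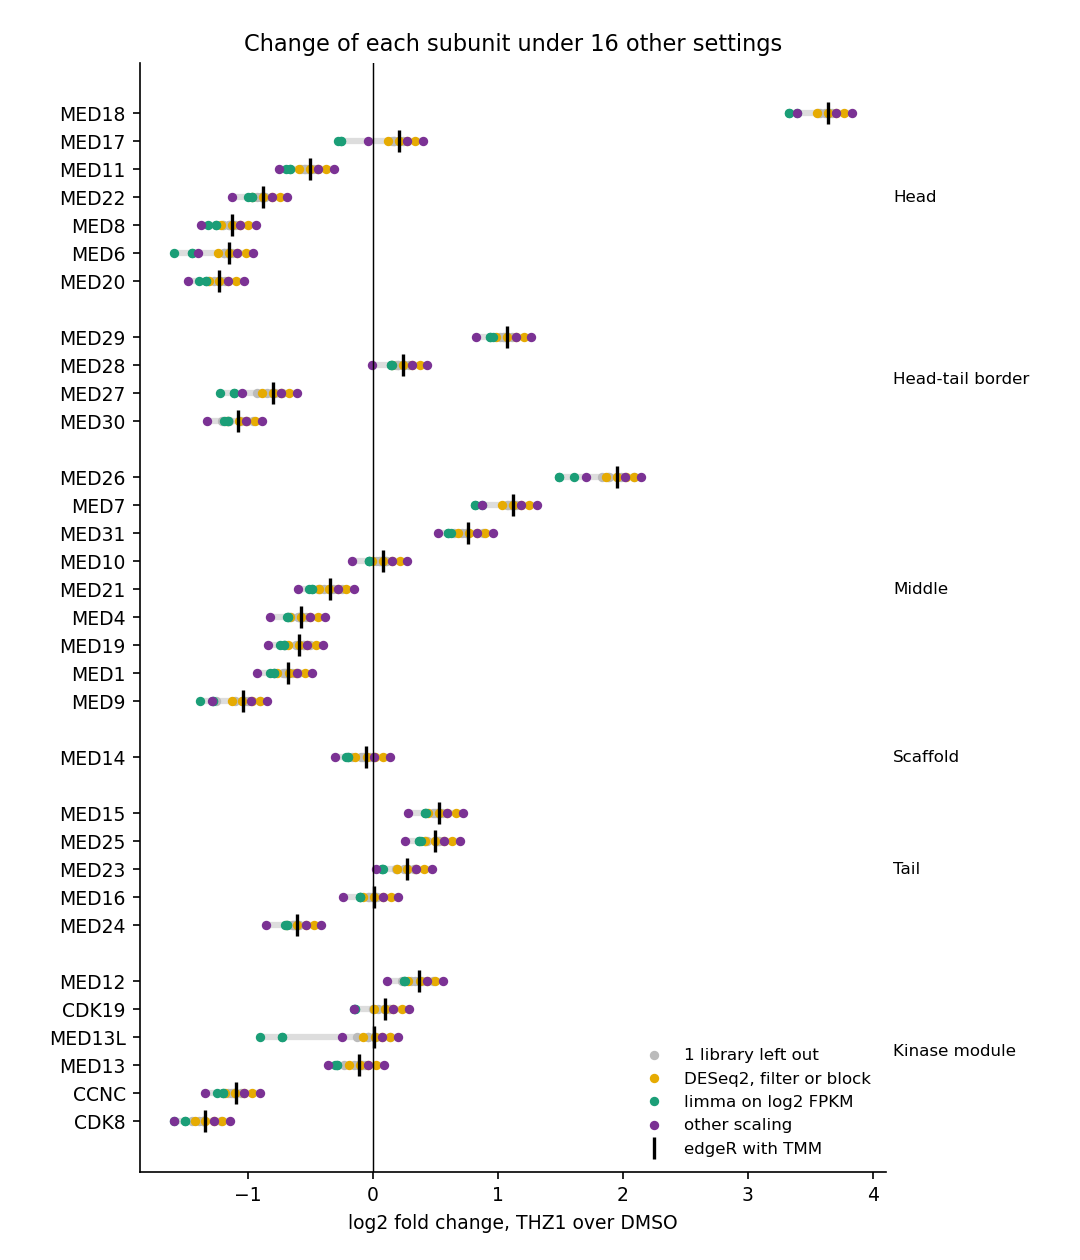
Log2 fold change of each subunit (THZ1 over DMSO) under 16 other settings, with a black bar for edgeR with TMM factors, purple for other scalings, yellow for DESeq2, the filters or a replicate block, green for limma on the deposited log2 values and grey for 1 library left out. The points of MED18 lie between 3.33 and 3.83 and those of CDK8 between −1.59 and −1.14, while those of MED13L lie between −0.90 and 0.20.

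The head module makes the main contact with the polymerase at the promoter. All 7 of its members were called, 5 lower and 2 higher, with a median log2 fold change of −0.88. By the same rule 47.6% of protein-coding genes were lower and 36.3% were higher, so that calls were common among genes in general. The same shares stand beside the counts of the other modules. MED18 forms a mobile unit of the head together with MED20, and MED8 tethers both to the rest of the head. MED18 was at 12.9, 12.0 and 13.9 CPM in the DMSO libraries and at 156, 156 and 171 CPM in the THZ1 libraries. Every THZ1 library stood far above every DMSO library, and the libraries of a treatment lay close together. The log2 fold change was 3.64 (SE 0.09, n = 3 per group, 95% interval 3.45 to 3.83, edgeR's quasi-likelihood test, Benjamini-Hochberg adjusted p = 4.37e-27), the highest of the 32. MED20, the partner of MED18, was at 43.2, 41.3 and 42.9 CPM with DMSO and at 17.0, 17.4 and 20.1 CPM with THZ1. All THZ1 libraries lay under all DMSO libraries, and the log2 fold change was −1.23 (SE 0.11, edgeR adjusted p = 1.94e-12). MED8, the tether of this unit, fell from 29.4 ± 1.97 to 13.5 ± 1.26 CPM (SD, n = 3 per group), with a log2 fold change of −1.13. The 3 proteins that form this arm of the head were thus encoded by 1 gene that rose and 2 that fell.

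Among the other head members, MED6 fell by 1.15 on the log2 scale (SE 0.13) and MED22 by 0.88 (SE 0.08). MED11, which pairs with MED22, was at 11.2, 11.2 and 12.4 CPM with DMSO and at 8.94, 7.34 and 8.29 CPM with THZ1. The libraries did not overlap, and MED11 fell by 0.50 on the log2 scale (SE 0.16, edgeR adjusted p = 0.00457), a call lost with upper quartile factors (−0.31, adjusted p = 0.0735). MED17, the central scaffold of the head, was at 42.5, 46.9 and 41.9 CPM with DMSO and at 52.9, 49.3 and 49.5 CPM with THZ1. All THZ1 libraries lay above all DMSO libraries by a small margin, and MED17 was called higher at 0.21 (SE 0.09, edgeR adjusted p = 0.0338), but its log2 fold change was −0.04 with library sizes alone and −0.25, a call in the lower direction, by limma on the deposited log2 values (adjusted p = 0.0484). Its call was also lost in edgeR without DMSO replicate 1 (0.17), DMSO replicate 3 (0.16), THZ1 replicate 1 (0.17), THZ1 replicate 2 (0.21) or THZ1 replicate 3 (0.21).

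MED18 (ENSG00000130772) lies on the plus strand at chr1:28655513-28662476 (GRCh37), and no other tested gene overlapped it. The nearest tested gene upstream was SESN2, 46510 bases away, which went from 31.8 to 127 CPM. PHACTR4, 33616 bases downstream, went from 43.0 to 12.1 CPM, so that the genes on either side of MED18 moved in opposite directions. MED18 held 0.716 to 0.877% of the summed CPM of the 32 members in the DMSO libraries and 9.29 to 10.3% in the THZ1 libraries. The sum of all members but MED18 was 1614, 1659 and 1573 CPM with DMSO and 1518, 1520 and 1493 CPM with THZ1. The scaling set the direction of this sum, whose log2 ratio of THZ1 to DMSO was −0.097 with TMM factors, −0.030 with RLE factors, 0.096 with upper quartile factors and −0.35 with library sizes alone.

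The promoter windows of MED18 and MED26, the members with the highest changes, and of the paralogs CDK8 and CDK19, of which CDK8 fell and CDK19 was not called, are shown with the motifs found in them. Each holds the 250 bases before the RefSeq start of the gene (GRCh38.p14), 5′ to 3′ on the strand of the gene, and capitals mark matches on either strand to an E-box with the letters CACGTG, the box named by its letters CCAAT, a GC box with the letters GGGCGG, the TATA box with the letters TATAAA or the core of an ETS site with the letters CCGGAAG.
MED18, chr1:28328790-28329039, plus strand: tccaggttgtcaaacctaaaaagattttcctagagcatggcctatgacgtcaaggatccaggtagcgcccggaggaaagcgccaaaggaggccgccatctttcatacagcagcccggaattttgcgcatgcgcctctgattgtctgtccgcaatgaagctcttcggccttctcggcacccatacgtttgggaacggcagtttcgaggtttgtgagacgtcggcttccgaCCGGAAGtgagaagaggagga
MED26, chr19:16628205-16628454, minus strand: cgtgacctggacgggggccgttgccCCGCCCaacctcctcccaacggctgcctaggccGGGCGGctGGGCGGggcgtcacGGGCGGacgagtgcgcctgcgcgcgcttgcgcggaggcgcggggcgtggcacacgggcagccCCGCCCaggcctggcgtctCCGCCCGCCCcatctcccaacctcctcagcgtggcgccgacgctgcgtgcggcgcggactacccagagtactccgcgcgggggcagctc
CDK8, chr13:26253879-26254128, plus strand: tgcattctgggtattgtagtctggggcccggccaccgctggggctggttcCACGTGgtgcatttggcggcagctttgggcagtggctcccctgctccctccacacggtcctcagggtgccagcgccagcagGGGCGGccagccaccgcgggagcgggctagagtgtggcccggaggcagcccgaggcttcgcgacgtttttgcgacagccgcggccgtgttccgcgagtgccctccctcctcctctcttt
CDK19, chr6:110815856-110816105, minus strand: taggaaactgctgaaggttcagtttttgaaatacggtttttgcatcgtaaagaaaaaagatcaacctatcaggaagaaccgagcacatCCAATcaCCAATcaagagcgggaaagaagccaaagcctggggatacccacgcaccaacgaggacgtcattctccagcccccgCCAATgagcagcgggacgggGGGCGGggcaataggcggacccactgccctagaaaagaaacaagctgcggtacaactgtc
The window of MED18 had a GC content of 54.4% and held 1 ETS core, next to the start. That of MED26 had a GC content of 78.0% and held 7 GC box matches, overlapping ones included. CDK8 had 1 E-box and 1 GC box at a GC content of 68.8%, and CDK19 had 3 CCAAT boxes and 1 GC box at 52.0%.

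RefSeq windows (250 bases before to 50 after the start) were matched for 24 of the 32 members, all but MED6, MED8, MED13, MED14, MED21, MED22, MED28 and MED30. The ETS core was in the windows of 7 of these 24 (29.2%), against 16.5% of the 15843 coding genes with a window. Of these 7, MED17, MED18, MED29, MED7, MED31 and MED15 were higher with THZ1 and MED11 was lower. Over all tested coding genes, 34.9% of the 2208 with the ETS core were higher and 35.3% of the 7506 without it. The E-box was in the windows of 2 members, CDK8 and MED13L (8.33% against 10.9% of coding genes), the CCAAT box in 9 (37.5% against 42.1%), the GC box in 16 (66.7% against 64.3%) and the TATA box in 2, MED7 and MED16 (8.33% against 12.4%). These matches are descriptions of the letters in the windows, chosen for display with the fold changes known, and the binding of no factor was measured. The median GC content of the members' windows was 57.5%, against 62.7% for coding genes.

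MED27 to MED30 lie between the head and the tail, and 2 of them rose while 2 fell. MED29 was at 39.4, 37.7 and 37.8 CPM with DMSO and at 86.8, 80.6 and 74.9 CPM with THZ1, and the THZ1 libraries stood clear of the DMSO libraries. Its log2 fold change was 1.08 (SE 0.09, edgeR adjusted p = 2.29e-13). ZFP36, an RNA-binding protein that speeds the decay of AU-rich mRNAs, lies 6205 bases downstream of MED29 on the same strand and went from 29.7 to 273 CPM. PAF1, whose start is 149 bases from that of MED29 on the other strand, had a log2 fold change of −0.45. MED30 was at 26.5, 28.0 and 35.6 CPM with DMSO and at 12.8, 16.5 and 13.5 CPM with THZ1. The groups did not overlap although DMSO replicate 3 stood above the other two, and MED30 fell by 1.08 on the log2 scale (SE 0.13, edgeR adjusted p = 5.15e-09). MED27 fell by 0.80 (SE 0.14). MED28 was at 124, 144 and 128 CPM with DMSO and at 163, 152 and 153 CPM with THZ1. MED28 was called higher at 0.24 (SE 0.07, edgeR adjusted p = 0.00265) with no overlap of the groups, but was at −0.01 with library sizes alone. Its call was lost without DMSO replicate 1 (0.18, adjusted p = 0.0626), without a filter on low counts (0.16) and by limma on the deposited values (0.15).

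**Figure D3:**
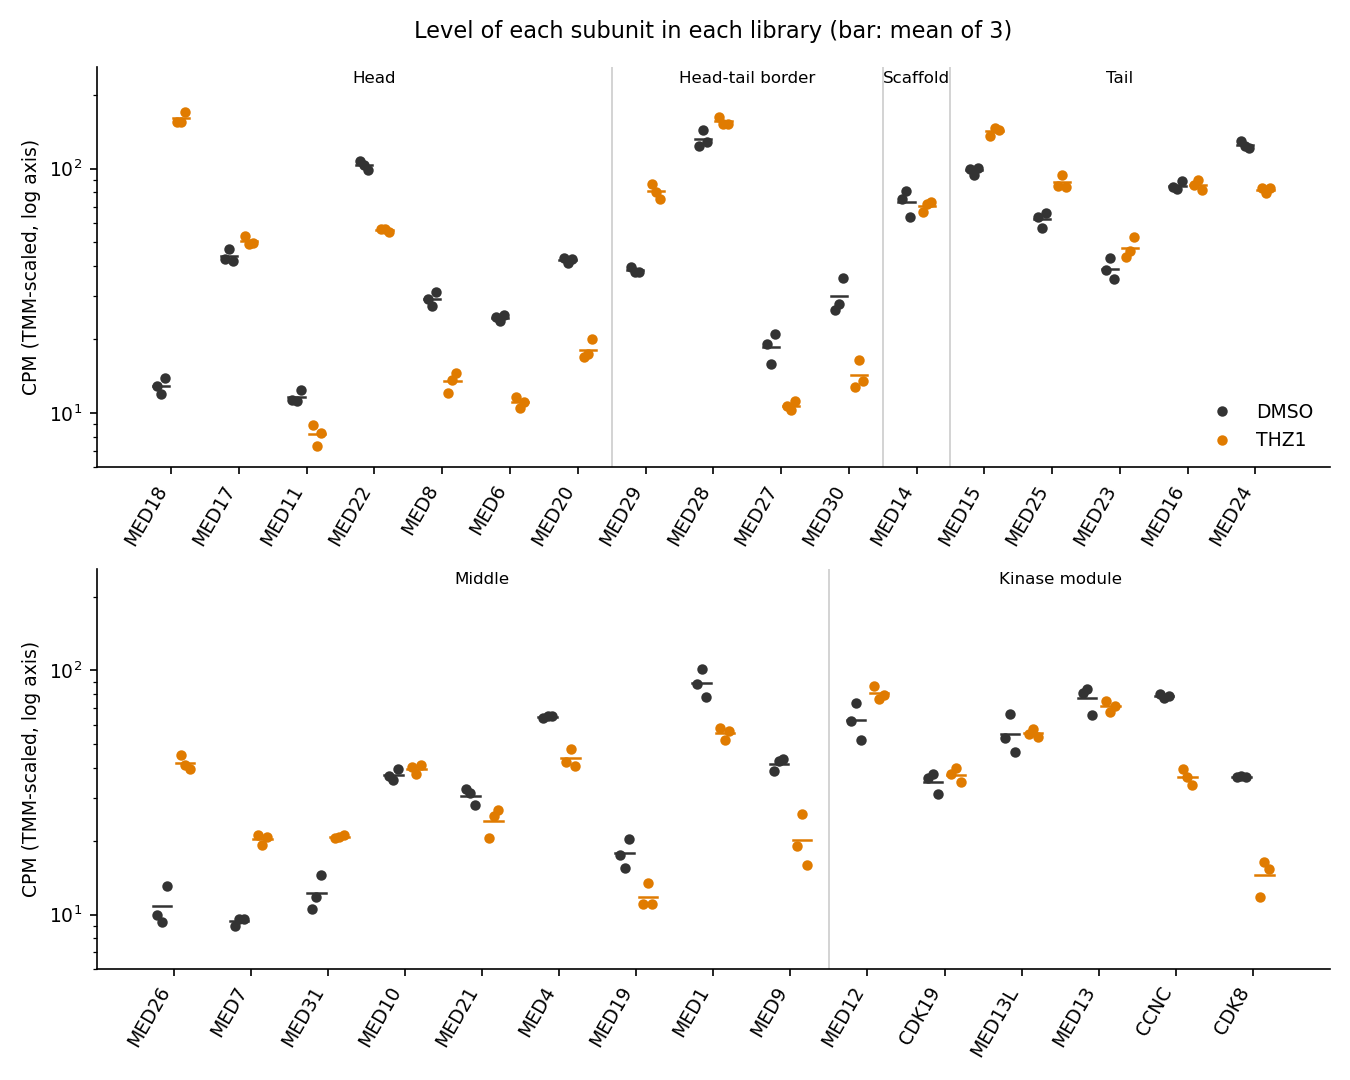
Level of each of the 32 subunits in each library, in TMM-scaled CPM on a log axis, with a point for each of 3 DMSO (dark) and 3 THZ1 (orange) libraries, a bar at each mean and panels split by module. The THZ1 points of MED18 lie at 156 to 171 CPM, above its DMSO points at 12.0 to 13.9, while the points of MED14 and CDK19 overlap between the treatments.

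The middle module transmits contacts from the tail and the kinase module to the polymerase. Of its 9 members, 5 fell, 3 rose and MED10 was not called, with a median log2 fold change of −0.35. MED26 is the subunit that recruits elongation factors such as the super elongation complex. MED26 was at 10.004, 9.34 and 13.1 CPM with DMSO and at 45.1, 41.0 and 39.4 CPM with THZ1. The THZ1 libraries lay at more than 3 times the highest DMSO library, and the log2 fold change was 1.95 (SE 0.12, 95% interval 1.70 to 2.21, edgeR adjusted p = 4.09e-16). It lay below 1.5, at 1.49, by limma on the deposited log2(FPKM + 1) values. The gene ENSG00000268087 overlaps MED26 on the other strand and was at 3.13 CPM with DMSO and 3.18 CPM after THZ1.

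MED7 and MED31, which bind each other in the middle module, both rose. MED7 went from 9.41 ± 0.343 to 20.4 ± 0.932 CPM (log2 fold change 1.12, SE 0.14), and MED31 from 12.3 ± 2.05 to 20.8 ± 0.249 CPM (0.76, SE 0.14). MED21, which pairs with MED7 in the hinge of the module, was at 32.7, 31.4 and 28.1 CPM with DMSO and at 20.5, 25.3 and 26.7 CPM with THZ1. The groups lay apart by a narrow gap, and MED21 fell by 0.35 on the log2 scale (SE 0.11, edgeR adjusted p = 0.00599). That call was lost with upper quartile factors (−0.15), with at least 10 counts required in every library (−0.21), without THZ1 replicate 1 (−0.24, adjusted p = 0.0702) and by DESeq2 (−0.28, adjusted p = 0.0539).

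MED9 changed the most downward in the middle module. It was at 38.6, 42.5 and 43.5 CPM with DMSO and at 19.1, 25.7 and 16.04 CPM with THZ1, the THZ1 libraries being more spread than the DMSO libraries but all lower. The log2 fold change was −1.04 (SE 0.12, edgeR adjusted p = 1.84e-09). MED4, the partner of MED9, fell by 0.57 (SE 0.09), and MED1, which binds nuclear receptors through LXXLL motifs, fell by 0.68 (SE 0.09). MED19, which contacts the polymerase from the hook of the module, fell by 0.59 (SE 0.14). MED10 was at 37.04, 35.7 and 39.4 CPM with DMSO and at 40.1, 37.7 and 41.0 CPM with THZ1. The groups overlapped, and the log2 fold change was 0.08 (95% interval −0.11 to 0.28, edgeR adjusted p = 0.411), with −0.16 under library sizes alone and 0.28 (adjusted p = 0.00825) under upper quartile factors.

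MED14, the backbone, was at 74.9, 81.1 and 63.3 CPM with DMSO and at 66.7, 71.4 and 73.3 CPM with THZ1. The THZ1 libraries lay inside the range of the DMSO libraries, and the log2 fold change was −0.05 (95% interval −0.23 to 0.13, edgeR adjusted p = 0.572). It was 0.01 with RLE factors, 0.14 with upper quartile factors and −0.30 (adjusted p = 0.0037) with library sizes alone. Without DMSO replicate 3, the lowest of its group, it was −0.17 (adjusted p = 0.0419), and without DMSO replicate 2, the highest, it was 0.0045. MED14OS, on the other strand over the start of MED14, went from 2.81 to 10.3 CPM.

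The tail takes up most of the known activator contacts, and of its 5 members 3 rose, 1 fell and MED16 was not called. Its median log2 fold change was 0.28. MED15, a target of SREBP factors in lipid metabolism, was at 99.96, 94.7 and 101 CPM with DMSO and at 136, 146 and 144 CPM with THZ1. All THZ1 libraries were higher, and the log2 fold change of 0.53 (SE 0.07, edgeR adjusted p = 3.60e-08) was the highest of the tail. MED25, which binds the activation domain of VP16, rose by 0.50 (SE 0.08). MED23, a target of ELK1, was at 38.4, 43.3 and 35.4 CPM with DMSO and at 43.4, 46.0 and 52.5 CPM with THZ1. The highest DMSO library and the lowest THZ1 library were almost level, and MED23 was called higher at 0.28 (SE 0.10, edgeR adjusted p = 0.0108). That call was lost without DMSO replicate 1 (0.25), DMSO replicate 3 (0.19) or THZ1 replicate 3 (0.18), and with library sizes alone (0.03), without a filter (0.19) and by limma on the deposited values (0.08).

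MED24, which forms a subassembly of the tail with MED23 and MED16, was at 129.6, 123 and 122 CPM with DMSO and at 83.6, 79.5 and 83.3 CPM with THZ1. The groups stood well apart, and MED24 fell by 0.61 on the log2 scale (SE 0.07, edgeR adjusted p = 4.63e-09). MED16 was at 84.2, 82.3 and 89.4 CPM with DMSO and at 86.0, 90.1 and 82.0 CPM with THZ1. The groups overlapped over nearly their whole range, and the log2 fold change was 0.01 (95% interval −0.15 to 0.17, edgeR adjusted p = 0.887). It was −0.24 (adjusted p = 0.00608) with library sizes alone and 0.21 (adjusted p = 0.0157) with upper quartile factors, and it was −0.01, −0.04 and −0.03 without DMSO replicate 1, DMSO replicate 2 and THZ1 replicate 2.

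In the kinase module, CDK8 and CCNC fell, MED12 was called higher, and MED13, MED13L and CDK19 were not called. CDK8, the kinase that phosphorylates transcription factors and the polymerase, was at 36.8, 36.9 and 36.6 CPM with DMSO and at 11.8, 16.5 and 15.4 CPM with THZ1. The DMSO libraries were nearly equal and all THZ1 libraries were under the level of any of them, and the log2 fold change of −1.34 (SE 0.12, edgeR adjusted p = 3.14e-12) was the lowest of the 32 members. CCNC, which encodes cyclin C, the cyclin of both kinases, was at 79.8, 77.5 and 78.4 CPM with DMSO and at 39.4, 36.7 and 34.0 CPM with THZ1. All THZ1 libraries lay far below the DMSO libraries, with a log2 fold change of −1.10 (SE 0.09, edgeR adjusted p = 2.06e-13). CDK19, which takes the place of CDK8 in part of the complexes, was at 36.2, 37.7 and 31.1 CPM with DMSO and at 37.7, 39.9 and 34.9 CPM with THZ1. The groups overlapped, and the log2 fold change was 0.10 (95% interval −0.11 to 0.30, edgeR adjusted p = 0.368), with −0.15 under library sizes alone, −0.14 by limma on the deposited values and 0.29 (adjusted p = 0.00911) under upper quartile factors.

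MED12, which activates the kinase through cyclin C, was at 61.8, 73.9 and 52.1 CPM with DMSO and at 86.8, 76.3 and 79.3 CPM with THZ1. The DMSO libraries were spread widely, but all lay under the THZ1 libraries, and the log2 fold change was 0.37 (SE 0.10, edgeR adjusted p = 0.000751). The call was lost with library sizes alone (0.12, adjusted p = 0.287) and by limma on the deposited values (0.25, adjusted p = 0.109). MED13, which ties the kinase module to the core, was at 81.2, 83.6 and 65.7 CPM with DMSO and at 75.0, 67.7 and 71.4 CPM with THZ1. The THZ1 libraries lay within the DMSO range, and the log2 fold change was −0.11 (95% interval −0.29 to 0.07, edgeR adjusted p = 0.259). It was −0.36 (adjusted p = 0.000889) with library sizes alone, 0.09 with upper quartile factors, −0.29 (adjusted p = 0.0334) by limma on the deposited values and −0.23 (adjusted p = 0.00502) without DMSO replicate 3. Its paralog MED13L was at 53.0, 66.3 and 46.2 CPM with DMSO and at 55.1, 57.9 and 53.5 CPM with THZ1. These groups overlapped too, with a log2 fold change of 0.01 (95% interval −0.20 to 0.21, edgeR adjusted p = 0.946), but on the deposited log2(FPKM + 1) values limma gave −0.72 (adjusted p = 0.00178). With library sizes alone it was −0.24 (adjusted p = 0.0384), and without DMSO replicate 1, DMSO replicate 3 or THZ1 replicate 2 it was −0.04, −0.12 and −0.03. The count table and the deposited FPKM values thus differed for MED13L, and the cause was not tested.

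**Figure D4:**
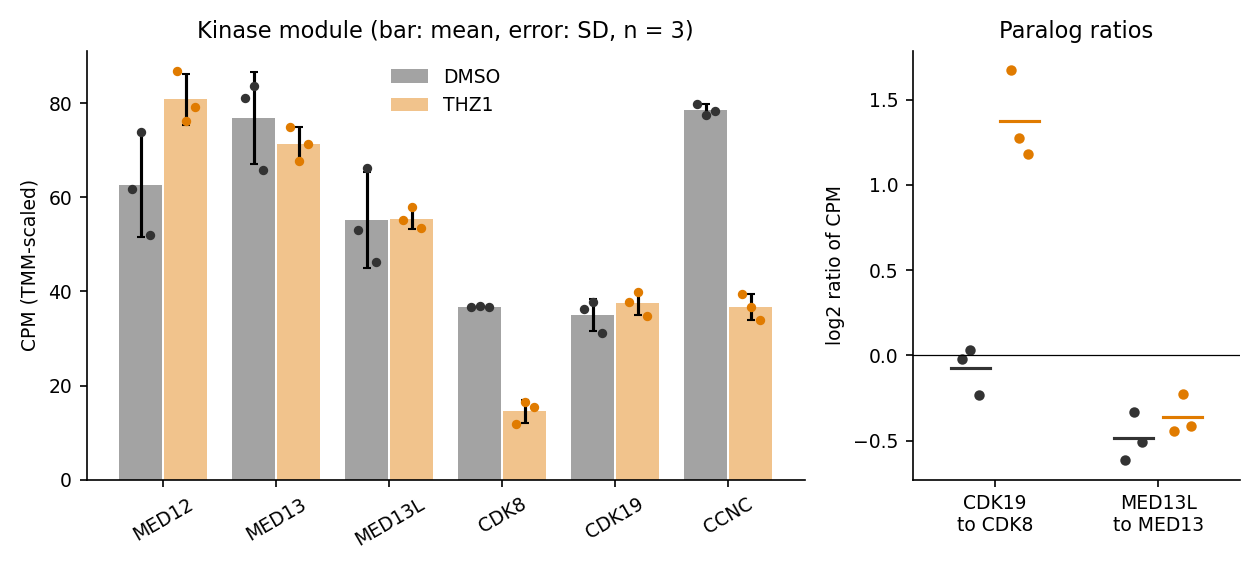
Left, TMM-scaled CPM of the 6 kinase module members with DMSO (grey) and THZ1 (orange), with bars at the mean, error bars for the SD and points for the 3 libraries of each treatment. Right, log2 ratio of the CPM of CDK19 to CDK8 and of MED13L to MED13 in each library, with a line at each mean, where the CDK19 to CDK8 ratio is higher in all 3 THZ1 libraries (1.18 to 1.67) than in any DMSO library (−0.23 to 0.03).

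CDK19 and CDK8 exclude each other within a complex, so that their balance was followed within each library. The log2 ratio of the CPM of CDK19 to that of CDK8 was −0.02, 0.03 and −0.23 in the DMSO libraries and 1.67, 1.28 and 1.18 in the THZ1 libraries. The ratio was higher in each THZ1 library than in any DMSO library. The mean went from −0.08 ± 0.14 to 1.38 ± 0.26 (SD, n = 3 per group), a difference of 1.45 on the log2 scale or a 2.74-fold rise of the ratio (exact permutation test, two-sided, p = 0.1, which is the lowest possible with 3 libraries against 3). Scaling between libraries cancels in this ratio, and leaving out 1 library at a time gave differences of 1.30 to 1.55. CPM does not correct for gene length, so that the level of either kinase against the other is given on the deposited values only. On the log2(FPKM + 1) scale CDK19 was below CDK8 by a mean difference of −1.08 with DMSO and above it by 0.28 with THZ1. The log2 ratio of MED13L to MED13 was −0.62, −0.33 and −0.51 with DMSO and −0.44, −0.23 and −0.42 with THZ1. These values overlapped between treatments, with a difference of 0.12 (two-sided exact permutation test, p = 0.4). As the lowest possible p is 0.1, this test could not bring either ratio below 0.05. On the deposited log2(FPKM + 1) values the MED13L to MED13 difference was −0.44, the other sign, with p = 0.1 in the same permutation test.

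The order of the subunits by length-scaled level was read from the deposited log2(FPKM + 1) values, which span from 2.59 (MED13L) to 6.16 (MED4) with DMSO and from 1.87 (MED13L) to 7.59 (MED18) with THZ1. MED18 moved from rank 22 of 32 (4.26 ± 0.11) to rank 1 (7.59 ± 0.07). MED26 moved from rank 31 to 13, MED7 from 29 to 15, MED31 from 25 to 11 and MED29 from 13 to 3. In the other direction, CDK8 moved from rank 11 (4.91) to 27 (3.41), CCNC from 7 to 18, MED30 from 2 to 12, MED8 from 10 to 25, MED20 from 8 to 23 and MED6 from 24 to 31. The highest subunit with DMSO, MED4, was at rank 5 with THZ1, and MED13L was the lowest in both. Over the 32 members, the log2 fold change had a Spearman rho of −0.43 with the deposited level in DMSO, a description over genes of the same libraries in which the DMSO level enters both measures.

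**Figure D5:**
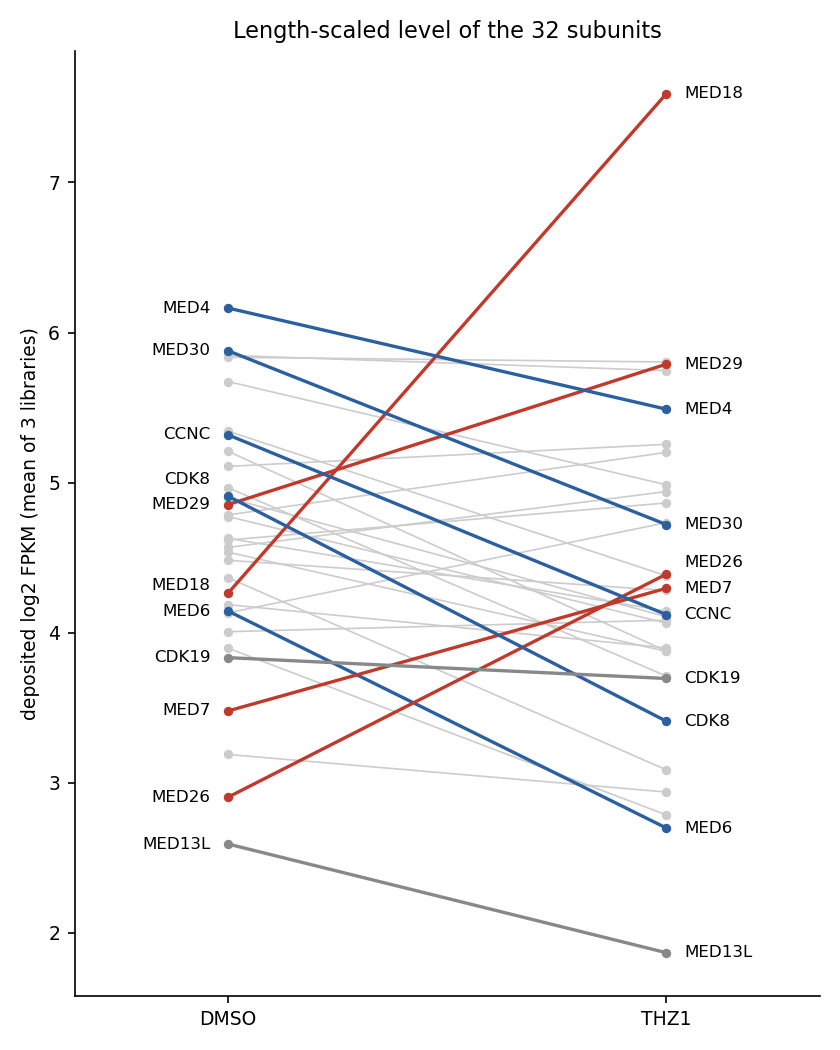
Mean deposited log2 FPKM value of the 32 subunits with DMSO (left) and THZ1 (right), each the mean of 3 libraries, with lines joining a subunit and named ones in red (higher), blue (lower) or dark grey (not called). MED18 goes from 4.26 to 7.59 and from rank 22 to rank 1, while CDK8 goes from 4.91 to 3.41.

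Features of the genes that the list did not use were set beside the changes. Over protein-coding genes, the log2 fold change had a Spearman rho of −0.34 with the span of the gene (n = 11929), −0.14 with transcript length and −0.20 with the number of exons (n = 11873 for both). Over the 32 members the same values were 0.01, 0.19 and −0.06, and neither set of genes holds independent replicates. Of the 12 members with 4 exons or fewer, 6 rose, 5 fell and 1 was not called, and of the 20 with more exons, 5 rose, 10 fell and 5 were not called. Over protein-coding genes of any exon number 36.3% were higher and 47.6% were lower, and their shares by exon number were not computed.

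Several members share a bidirectional start region with a tested coding gene on the other strand, and both genes of such a pair moved the same way in some pairs and opposite ways in others. MED20 and BYSL (−1.23 and −0.88 on the log2 scale), MED22 and RPL7A (−0.88 and −1.20) and MED19 and TMX2 (−0.59 and −1.28) were lower together. MED29 and PAF1 (1.08 and −0.45), MED15 and KLHL22 (0.53 and −0.82), MED25 and FUZ (0.50 and −0.44) and MED17 and TAF1D (0.21 and −0.36) went opposite ways, with the member higher in each. A tested gene overlapped 16 members, on the other strand for 15 and on the same strand for MED13. The strand setting of the counting is not given in the sources used here, so that reads of such pairs may be shared. Of the 18 pairs of a member and an overlapping gene, both were called in the same direction in 7 and in opposite directions in 3, and at least 1 of the genes was not called in 8. MED8-AS1 (−1.001) was lower with MED8, MED4-AS1 (−1.11) with MED4, and PTOV1-AS1 (0.75) was higher with MED25. The opposite pairs were MED22 with RPL21P81 (3.81), MED11 with CXCL16 (2.46) and MED17 with TAF1D (−0.36). No tested gene overlapped MED18, MED29, MED7, MED20, MED6, CDK8, CDK19 or CCNC.

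A further list held 24 genes that work with Mediator: CDK7 and its partners in TFIIH, cohesin, factors linked to MED26, acetyltransferases and general factors. Of the 23 tested, 10 were higher with THZ1 and 11 were lower by edgeR's quasi-likelihood test, and the acetyltransferase CREBBP and the initiation factor GTF2B were not called. CREBBP, at 107, 116 and 89.8 CPM with DMSO and 122, 99.8 and 124 CPM with THZ1, had a log2 fold change of 0.15 (edgeR adjusted p = 0.123), which was −0.11 with library sizes alone. It was called at 0.21 with RLE factors, 0.34 with upper quartile factors and 0.28 with at least 10 counts required in every library, and at 0.21 and 0.23 without DMSO replicate 2 and THZ1 replicate 2. GTF2B, at 36.6, 31.1 and 43.0 CPM with DMSO and 36.2, 36.7 and 36.0 CPM with THZ1, had a log2 fold change of −0.03 (edgeR adjusted p = 0.826), which was 0.04 with RLE factors, 0.17 with upper quartile factors, −0.27 (adjusted p = 0.0188) with library sizes alone and 0.08 without DMSO replicate 3. The libraries of both genes overlapped between the treatments. The median log2 fold change of the list was −0.03. Among all genes 43.5% were higher and 41.1% were lower, and among protein-coding genes 36.3% were higher and 47.6% were lower. MED12L, a paralog of MED12, had at most 0.134 CPM in any library and was not tested. CDK7, the target of THZ1, was at 26.9, 22.2 and 27.3 CPM with DMSO and at 20.0, 20.4 and 19.9 CPM with THZ1. Its THZ1 libraries were nearly level and lay under all DMSO libraries, and CDK7 fell by 0.34 on the log2 scale (SE 0.12, edgeR adjusted p = 0.00828), a call lost with upper quartile factors (−0.15), by DESeq2 (−0.28) and with at least 10 counts required in every library (−0.21). EAF1, a partner of the elongation factor ELL, was at 46.0, 51.1 and 40.8 CPM with DMSO and at 361, 335 and 339 CPM with THZ1. It stood far higher in all THZ1 libraries, with the highest change of the list (2.91, SE 0.08, edgeR adjusted p = 2.91e-26). SMC1A, a core subunit of the cohesin ring, was at 280.2, 317 and 262 CPM with DMSO and at 75.2, 75.9 and 72.9 CPM with THZ1, the lowest change of the list (−1.94, SE 0.08, edgeR adjusted p = 9.33e-22). Of the 7 factors on the list that are linked to MED26, 4 were higher, namely TAF7 (1.94), ELL (1.71), EAF1 and AFF4 (0.54). The 3 lower were EAF2 (−1.37), ICE1 (−1.05) and ZC3H8 (−1.43).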

How the data were processed

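Raw counts of each gene were deposited by the authors, who filtered the reads, aligned them to GRCh37 with STAR 2.7.3a and used htseq-count. They also deposited FPKM values from RSEM on a log2 scale, read here as log2(FPKM + 1). The scaling of these values is not given in the sources used here. Their sorted values were nearly equal in the libraries of a treatment. SDs and p-values from them may thus understate the spread between libraries, which was not tested. The annotation and the strand setting of the counts are not given in the sources used here. The authors' own log2 fold changes, p-values and FDR values (3 columns) were not used. Submitters' notes also name cutadapt.

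Groups were taken from the labels. Counts were filtered by edgeR's filterByExpr (minimum count 10, minimum total 15), given TMM factors and tested with edgeR's robust quasi-likelihood F test, adjusting p-values by Benjamini-Hochberg across the genes tested. Paralog ratios were tested by exact permutation. The 32 members and the other lists were chosen with earlier results of these data known. Every library's values are given for the extremes of each module, the kinase module, MED14, MED26, members not called and members whose call depended on the scaling. MED7, MED8, MED25 and MED31 and the partners named with fold changes beyond the extremes were added after their values were seen, as were the neighbouring genes. Calls with adjusted p below 0.05 were made at any fold. Alternatives were RLE, upper quartile and no scaling factors, DESeq2, a replicate block, omission of each library, no filter or at least 10 counts in every library, and limma on log2(FPKM + 1) or log2(FPKM + 0.1), with a mean FPKM of at least 0.1 or unfiltered. Other scalings of the summed CPM were chosen after seeing the data. Some results are left out of this report. The code was tested on simulated data in which most genes were unchanged, unlike these data, so that the scaling was not tested where most genes change. Positions are from GENCODE 44 on GRCh37, and promoter windows from RefSeq on GRCh38.p14. R 4.3.3, edgeR 4.0.16, limma 3.58.1, DESeq2 1.42.0 and Python 3.11.15 were used.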

Additional observations from a re-analysis of the deposited data

How the results depend on the processing

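Of the 32 subunits, 20 kept their direction and call in all 16 alternatives. Among these, limma on log2(FPKM + 1) gave the same values with and without the filter, so that the unfiltered fit adds no separate check. The count of subunits lower ranged from 13 to 19, and from 14 to 17 when 1 library was left out. The count higher was 11 and became 7 with library sizes alone and in all 3 limma fits to the FPKM values. It rose to 14 with upper quartile factors and to 13 with at least 10 counts in every library. When 1 library was left out it was 8 to 11. Past a log2 fold change of 1.5, 1 subunit was lower with library sizes alone and 2 by limma on log2(FPKM + 0.1), and 1 was higher by limma on log2(FPKM + 1), with or without the filter. The difference of the MED13L to MED13 ratio was −0.44 on log2(FPKM + 1) and −0.59 on log2(FPKM + 0.1), against 0.06 to 0.20 with 1 library left out. Single subunits changed sign as follows, and the cause was not tested. With library sizes alone, MED17 was at −0.041, MED28 at −0.0052, MED10 at −0.16, MED16 at −0.24, MED13L at −0.24, CDK19 at −0.15 and the partner CREBBP at −0.11. By limma on log2(FPKM + 1), filtered or not, MED17 was at −0.25, MED10 at −0.032, MED16 at −0.10, MED13L at −0.72, CDK19 at −0.14 and CREBBP at −0.018, and on log2(FPKM + 0.1) they were at −0.28, −0.032, −0.10, −0.90, −0.15 and −0.019. MED14 was at 0.014 with RLE factors and with DESeq2, 0.14 with upper quartile factors and 0.079 with at least 10 counts in every library. MED13 was at 0.086 with upper quartile factors and 0.026 with at least 10 counts in every library. The partner GTF2B was at 0.042 with RLE factors, 0.041 with DESeq2, 0.17 with upper quartile factors, 0.11 when every library had to hold 10 counts, and 0.078 at most with 1 library left out. Without a filter, MED10 was at −0.0024, MED16 at −0.075 and MED13L at −0.079. With 1 library left out, MED14 lay between −0.17 and 0.0045, MED16 between −0.036 and 0.035 and MED13L between −0.12 and 0.14. With the replicate number as a block, 15 subunits were lower and 11 higher, as without it. Over the genes tested, correlations of same-numbered deviations from the group means lay between −0.0040 and 0.021. Those of differently numbered libraries lay between −0.018 and 0.017. Values so near 0 cannot show whether the libraries were prepared in pairs. The partners were lower for 9 to 12 genes and higher for 9 to 11. With the ratio of CDK19 to CDK8 taken within replicate numbers, the difference was 1.45 and p was 0.25, the smallest that 3 pairs allow by exact sign-flip permutation. The summed CPM of the subunits but MED18 gave a log2 ratio of 0.096 with upper quartile factors, an alternative chosen after seeing the data, against −0.097 with TMM factors.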
